A study of Mus musculus with 8 samples.

Results

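Transcript levels were compared between tI-3 cells (p53SYM) and Con-3 cells (SYM), a pair of mouse fetal fibroblast lines that both renew symmetrically, each division giving a pair of cycling cells. The comparison used 5 of the 8 arrays of the series, chosen by the cell line named in the sample titles: 2 arrays of tI-3 and 3 of Con-3. The 3 arrays of a further line, Ind-8, took part in the estimate of the spread, and their levels are given beside some genes without a test, because the comparisons of Ind-8 would share the same arrays. Both lines come from cells without a p53 gene of their own. Con-3 is the vector control according to the methods, although its labels name it as a parent line. The Ind-8 line carries a cDNA of wild-type mouse p53 behind a modified human metallothionein promoter, which zinc switches on, and self-renews asymmetrically in zinc. tI-3 was made from a p53-inducible line by adding a constitutive cDNA of IMPDH II, the rate-limiting enzyme of guanine nucleotide synthesis, and it keeps dividing symmetrically while p53 is induced. All 8 cultures had been in 65 µM zinc chloride for 48 hours with puromycin, and the tI-3 medium also held G418. Each line is 1 clone, so that p53, the IMPDH II cDNA, G418 and the history of the clone cannot be told apart in any difference between tI-3 and Con-3. The arrays of a line came from separate cell preparations.

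The tumor suppressor p53 is a transcription factor that binds DNA as a tetramer and, when active, raises genes for cell cycle arrest (Cdkn1a), for its own turnover (Mdm2), for death receptors (Fas) and for DNA repair (Ddb2). In fibroblasts it is best known for stopping the cycle in G1 after DNA damage. IMPDH II lies downstream of p53 in the account of these lines, in which p53 lowers its level. A comparison of both symmetric lines shows which transcripts differ between them when the pattern of division is the same. Besides p53, tI-3 also has the IMPDH II cDNA, G418 and its own clone history, so no difference can be ascribed to p53 alone.

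Values are log2 expression levels as deposited, in which a step of 1 is a 2-fold change in signal. Of 22587 rows, 64 control rows were left out and rows with the same value on every array were counted once, which left 18172 distinct rows and 15540 genes with a symbol, each gene represented by its row with the highest mean. A row was called at an adjusted p under 0.05 in limma with Benjamini-Hochberg adjustment over all 18172 rows. A level under 4.29, the 25th percentile of the row means, is described as the dim end of the scale, where differences in RNA are compressed.

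Some arrays stood apart before any gene was compared. The 3 control rows for 18S ribosomal RNA averaged 10.63 on Con-3 replicate 3, against 5.87 and 6.05 on the other Con-3 arrays and 6.46 and 6.22 on the tI-3 arrays. Of the hybridization controls, RNAs added at a fixed amount, the 14 rows for BioB, BioC and BioD were used. They averaged 9.05, 9.16 and 9.62 on Con-3 replicates 1 to 3 and 9.43 and 9.71 on the tI-3 arrays. Both tI-3 arrays and Con-3 replicate 3 thus lay at the higher level, above 9.3. The Cre control rows were left out, and not each of them split the arrays this way. Row CreX-3 read 13.01, 12.86 and 13.20 in Con-3 and 12.93 and 12.99 in tI-3. Row r2-P1-cre-5, which did, read 13.33, 13.21 and 13.61 in Con-3 and 13.45 and 13.42 in tI-3. Over all 18172 rows the array medians were between 6.13 and 6.17 in these 5 arrays. The upper quartile was 8.34, 8.34 and 8.30 in Con-3 and 8.21 and 8.15 in tI-3, and the lower quartile was 4.23, 4.27 and 4.37 in Con-3 and 4.39 and 4.43 in tI-3. The range of values was thus narrower on the tI-3 arrays at both ends.

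The lines differed in a large share of their transcripts. In tI-3, 1867 rows were called higher (10.3% of 18172) and 2827 lower (15.6%). With a difference of at least 2-fold as well, 205 rows were higher (1.13%) and 377 lower (2.07%). Counted by gene, 1643 of 15540 were higher (10.6%) and 2559 lower (16.5%), and these shares are the background for every gene list described here. The median difference over all genes was 0.02. Pearson correlations over all rows were 0.994 to 0.996 between Con-3 arrays, 0.995 between the tI-3 arrays and 0.979 to 0.981 between the lines. With the hybridization-control level added to the fit as a block, which leaves Con-3 replicate 3 as the only Con-3 array to set against tI-3, 883 rows were higher and 1603 lower. By gene these were 779 (5.01%) and 1457 (9.38%), and 2131 of the 4202 genes called without the block were called in the same direction with it. All 4202 kept the sign of their difference, and 499 of 527 genes that were called and differed by at least 2-fold stayed called. Leaving out tI-3 replicate 2 gave 928 rows higher and 1595 lower. The rank product test, which the study's methods state for other comparisons, called 116 rows higher and 296 lower.

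**Figure D1:**
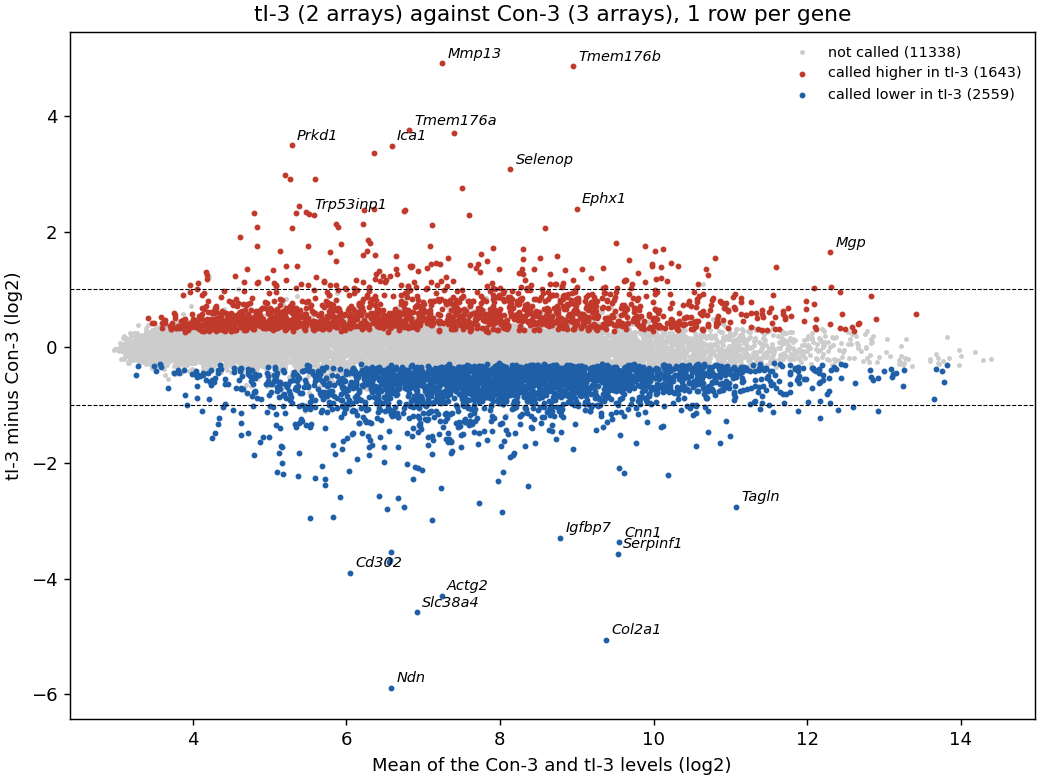
Difference between the lines against level, for 15540 genes. The horizontal axis is the mean of the Con-3 and tI-3 levels (log2), the vertical axis tI-3 minus Con-3 (log2), red and blue points are genes called higher (1643) and lower (2559) in tI-3, and dashed lines mark a 2-fold difference. The falls reach -5.88 (Ndn) and the rises 4.91 (Mmp13).

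The direction of the calls moved with brightness. Among the 4543 dimmest rows, 197 were higher in tI-3 and 41 lower. Among the 4543 brightest, 541 were higher and 1333 lower, with a median difference of -0.14. When the arrays were quantile-normalized again, the median of the brightest rows was -0.01 and the calls over all rows were 2095 higher and 2267 lower. Small falls of bright gene groups are read below with this in view, and for most such groups the median after the repeated normalization stands beside the other.

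The label of the comparison was checked on the genes that define it. Trp53, the mouse p53 gene, read 5.21, 5.29 and 5.27 on the Con-3 arrays and 5.60 and 5.69 on the tI-3 arrays. Both tI-3 arrays lay above all Con-3 arrays, by 0.39 ± 0.10 (SE, adjusted p = 0.0141), although the call was lost with the control-level block (adjusted p = 0.101) and without tI-3 replicate 2. Arrays of tI-3 and Con-3 did not overlap for 8342 of all 15540 genes (53.7%), so such a separation was common. The Ind-8 arrays read 5.68, 5.87 and 5.80 for Trp53. Where the probes lie relative to the null allele and the cDNA was not examined, so the levels in Con-3 do not measure intact p53 transcript. Impdh2, the gene of IMPDH II, read 12.51, 12.56 and 12.53 in Con-3 and 12.34 and 12.38 in tI-3, and the difference of -0.17 ± 0.09 did not pass (adjusted p = 0.179). The paper reports higher IMPDH II expression in p53SYM than in SYM cells, a direction this row did not show. Which part of the transcript the probes cover was not examined, so this value is no measure of the added cDNA. The Ind-8 arrays read 12.16, 12.19 and 12.22. Impdh1, the other isoform, differed by 0.12 ± 0.12 (adjusted p = 0.487). The metallothionein genes Mt1 and Mt2, which zinc induces, were among the brightest rows in both lines. Mt1 read 13.72, 13.83 and 13.64 in Con-3 and 13.77 and 13.47 in tI-3, with no call (adjusted p = 0.531). Mt2 was lower in tI-3 by 0.39 (adjusted p = 0.0242), a call that was lost after repeated quantile normalization, with the block (adjusted p = 0.197) and without tI-3 replicate 2 or Con-3 replicate 2.

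Of the known p53 targets that were called, most were higher in tI-3. Of 39 measured targets, 14 were called higher and 3 lower, with a median difference of 0.24, or 0.16 with the block. That is 43.6% called, against 27.0% of all genes in either direction. Ephx1, an epoxide hydrolase that detoxifies foreign compounds, read 7.58, 8.05 and 7.77 in Con-3 and 10.37 and 10.03 in tI-3. Its rise was 2.40 ± 0.22 (adjusted p = 6.3e-05). Trp53inp1, a stress protein that promotes p53 activity and autophagy, read 4.57, 4.40 and 4.13 in Con-3 and 6.81 and 6.53 in tI-3, a rise of 2.30 ± 0.31. Ccng1, cyclin G1, read 9.14, 9.20 and 9.22 and 10.93 and 10.77, a rise of 1.67 ± 0.16. In all 3 genes the lines were apart by far more than the arrays of a line.

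Of the best known targets, named after their values had been seen, Cdkn1a (the inhibitor p21 of cyclin-dependent kinases) rose by 1.59 ± 0.12, from 5.73, 5.81 and 6.03 in Con-3 to 7.55 and 7.33 in tI-3. No detection calls came with the deposited values, but the paper lists Cdkn1a among genes scored as absent in the SYM state, that of Con-3. Its level in Con-3 may thus be background, and the size of the rise is then a lower bound. Mdm2, the ubiquitin ligase that degrades p53, rose by 0.72 ± 0.14 (adjusted p = 0.00468). Ddb2, of DNA repair, rose by 0.94 ± 0.20, a call lost without tI-3 replicate 1. Fas, the death receptor, rose by 0.74 ± 0.21 (adjusted p = 0.026), a call lost with the block (adjusted p = 0.245) and without tI-3 replicate 1 or 2 or Con-3 replicate 1 or 2. Bax, which permeabilizes mitochondria in apoptosis, rose by 0.47 ± 0.10, and its call was lost with the block (adjusted p = 0.0746). Not every target moved this way. Pmaip1, the apoptosis gene Noxa, read 5.73, 4.49 and 4.87 in Con-3 and 3.39 and 3.55 in tI-3, a fall of 1.56 ± 0.27 that ended at the dim end of the scale. Plk3, a kinase of the stress response, was lower by 1.08 and Sesn1, an inhibitor of growth signalling through mTORC1, by 0.91. The other 22 targets did not pass. With the block, 11 targets were higher and 3 lower, and the rank product test called 7 of the 39. A strict p53 consensus, 2 full half-sites with no spacer and no mismatch, was searched on both strands in promoter windows of 300 bases. The windows held 250 bases before the start site and 50 after it. The pattern was present for 0 of the 31 genes with a window and in 0.009% of all 32851 windows. So rare a pattern could hardly be found in this list, and looser or more distant sites were not searched.

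The levels in Ind-8, the line that divides asymmetrically, are given here for the same genes. Ephx1 read 11.24, 12.06 and 11.66, Trp53inp1 7.37, 8.73 and 7.96, Ccng1 11.79, 12.42 and 12.07 and Cdkn1a 9.70, 9.70 and 9.59 on its 3 arrays. For each of these 4 genes the tI-3 arrays lay between the Con-3 and the Ind-8 arrays. Pmaip1 read 3.57, 3.52 and 3.38 in Ind-8. The difference between tI-3 and Ind-8 was not tested here.

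**Figure D2:**
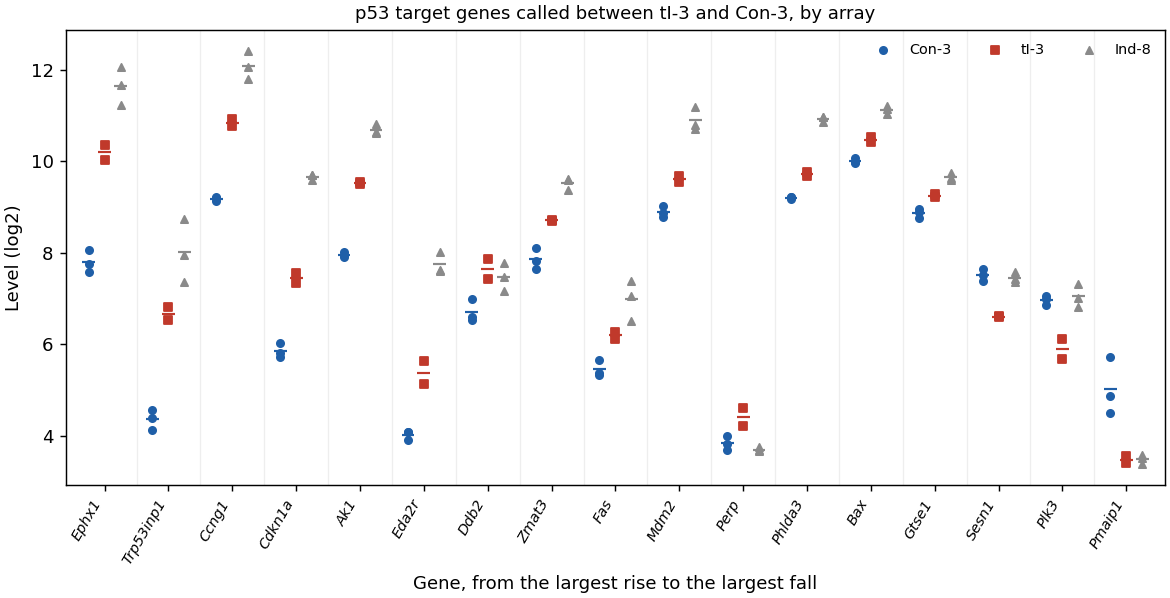
Levels (log2) on each array for the 17 p53 target genes called between tI-3 and Con-3, with circles for Con-3 (3 arrays), squares for tI-3 (2), triangles for Ind-8 (3) and bars for line means. Ephx1 rises most (2.40) and Pmaip1 falls most (-1.56).

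Cell cycle genes were called about as often as genes overall. Of 36 measured genes of DNA replication, 10 were lower and 1 higher (30.6% called, against 27.0% of all genes), with a median of -0.19. Orc1, a subunit of the origin recognition complex, fell by 0.88 ± 0.12, and Cdc6, which loads the replicative helicase, by 0.82 ± 0.11. Mcm5, a subunit of that helicase, fell by 0.75 ± 0.11. Chaf1b, a histone chaperone subunit, rose by 0.44 ± 0.11, a call lost with the block (adjusted p = 0.084) and without tI-3 replicate 2. After repeated quantile normalization the median was -0.07 with 6 lower and 1 higher, and 4 were called, all lower, with the block. Without tI-3 replicate 2 the count called was 4. Of 36 mitosis genes, 5 were lower, 4 higher and 27 not called, with a median of -0.04 that turned to 0.08 after repeated normalization. Mad2l1, of the spindle checkpoint, fell by 0.67, Ccnb2, cyclin B2, by 0.65 and Cdk1, the mitotic kinase, by 0.60. Lmnb1, a nuclear lamin, rose by 0.64, Cdc25b, a phosphatase that activates Cdk1, by 0.53 and Nusap1, a spindle protein, by 0.35. The calls of Lmnb1 and Nusap1 were lost with the block (adjusted p = 0.0507 and 0.147), that of Nusap1 also without tI-3 replicate 1 or Con-3 replicate 2 or 3, and that of Cdc25b without tI-3 replicate 1 or 2 or Con-3 replicate 1 or 3. Without Con-3 replicate 3 or tI-3 replicate 1 the mitosis calls were 1 higher and 3 lower. They numbered 4 with the block and 4 or 5 without tI-3 replicate 1 or 2 or Con-3 replicate 2 or 3.

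The purine pathway in which IMPDH II works was measured in 26 genes, of which 3 were higher and 5 lower (median -0.14, or -0.04 after repeated normalization). Adssl1, an adenylosuccinate synthase that commits IMP to AMP, read 4.72, 4.70 and 4.49 in Con-3 and 5.85 and 5.76 in tI-3, a rise of 1.17 ± 0.21. Ampd2, which returns AMP to IMP, rose by 0.48, a call lost within the higher control level. Gmps, which takes the product of IMPDH to GMP, rose by 0.32 ± 0.10 (adjusted p = 0.0302), a call lost with the block (adjusted p = 0.152) and without any of the 5 arrays of these lines in turn. Ada, adenosine deaminase, read 8.27, 8.24 and 8.12 in Con-3 and 7.16 and 7.14 in tI-3, a fall of 1.06 ± 0.11. Prps1, which makes the ribose donor of all nucleotide synthesis, fell by 0.74. Within the higher control level 4 of the 26 genes were called.

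Of 19 metallothionein and zinc transporter genes, 3 were higher and 3 lower (median -0.07, or 0.01 after repeated normalization). The zinc importer gene Slc39a10 rose by 0.69 ± 0.12, Slc30a4, an exporter into vesicles, by 0.55 and Slc39a4, an importer at the dim end in Con-3, by 0.41. The importers Slc39a6 and Slc39a7 fell by 0.82 and 0.50. The calls of Slc30a4 and Slc39a4 were lost with the block (adjusted p = 0.0906 and 0.357) and without tI-3 replicate 1 or 2, that of Slc39a4 also after repeated normalization and without Con-3 replicate 1 or 2, and that of Slc39a10 within the higher control level. The count called was 3 with the block, 2 within the higher control level and 3 without tI-3 replicate 2.

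Among extracellular matrix genes most calls were falls, some of them in larger steps. Collagens are the main fibers of the matrix that fibroblasts secrete. Of 22 measured collagen genes, 12 were lower and 1 higher (59.1% called), with a median of -0.65, or -0.55 after repeated normalization. Col2a1, the collagen of cartilage, read 12.17, 11.62 and 11.93 in Con-3 and 6.85 and 6.87 in tI-3. The fall of 5.05 ± 0.19 (adjusted p = 1.91e-07) took a bright row to a middle level, while Ind-8 read 11.78, 11.19 and 11.76. Col3a1, of reticular fibers, read 8.59, 9.37 and 9.25 in Con-3 and 6.26 and 6.51 in tI-3, a fall of 2.68 ± 0.37. Col6a2, of the microfibrils around cells, fell by 1.18 ± 0.12. Not all fibrillar collagen genes moved together: Col1a1 was lower by 1.06 ± 0.21 (adjusted p = 0.00448), a call lost without tI-3 replicate 1, while Col1a2, the partner chain of the same fiber, differed by -0.01 ± 0.23 (adjusted p = 0.97). Col8a1, a short-chain collagen, rose by 1.33 ± 0.14. Of the 22 genes, 3 lie on chromosome 10, all 3 of them lower, and the median of the remaining genes was -0.25, with 9 lower and 1 higher.

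Of 38 other matrix proteins and matrix enzymes, 16 were lower and 8 higher (63.2% called), with a median of -0.23 that ran from -0.49 to -0.11 over the alternatives and was -0.40 for the genes off chromosome 10. Mmp13, a collagenase that cleaves fibrillar collagens, read 6.29, 4.20 and 3.89 in Con-3 and 10.08 and 9.32 in tI-3. Con-3 replicate 1 lay over 2 log2 units above the other Con-3 arrays and still far below both tI-3 arrays, and the rise was 4.91 ± 0.76 (adjusted p = 0.00115). Mmp3, stromelysin 1, rose by 2.13 ± 0.26. Mgp, an inhibitor of calcification, read 11.39, 11.83 and 11.19 in Con-3 and 13.25 and 12.99 in tI-3, a rise of 1.65 ± 0.22. Tnc, tenascin C, fell by 2.09 ± 0.27, Loxl2, a crosslinking oxidase, by 1.73 ± 0.19 and Nid1, a basement membrane linker, by 1.71 ± 0.12. With the block 4 of the 38 were higher and 15 lower, and 5 were higher without tI-3 replicate 1, tI-3 replicate 2 or Con-3 replicate 2.

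Among contractile genes of smooth muscle type, which fibroblasts switch on when they become myofibroblasts, most calls were falls as well. Of 24 measured, 10 were lower and 2 higher (50.0% called), with a median of -0.36, or -0.24 after repeated normalization. Actg2, the enteric smooth muscle actin, read 9.85, 8.82 and 9.49 in Con-3 and 5.19 and 5.00 in tI-3, a fall of 4.29 ± 0.27 (adjusted p = 6.24e-06). Cnn1, calponin 1, read 11.54, 10.83 and 11.33 and 7.76 and 7.98, a fall of 3.37 ± 0.20. Tagln, transgelin, read 12.68, 12.16 and 12.51 and 9.54 and 9.85, a fall of 2.75 ± 0.17. In all 3 the tI-3 arrays lay more than 2 log2 units below every Con-3 array, and the Ind-8 means were 10.05, 11.58 and 12.70. Ckb, brain-type creatine kinase, rose by 0.92, and Mrtfb, a coactivator of the serum response factor, by 0.64 ± 0.11.

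The serum response factor binds the CArG box, and its motif was searched in the promoters of these contractile genes. RefSeq promoter windows of 300 bases, 250 before the start site and 50 after it, on GRCm38.p6, were found for 20 of the 24 genes, and both strands were read. A CArG box was present in 4 of the 20, namely in 3 of the 7 called lower (Cnn2, Myl9 and Srf), in none of the 2 called higher and in 1 of the 11 not called (Vcl). Over all 32851 promoter windows, of genes measured or not, 1.63% held one. A gene counted if any of its windows held the box, so the shares of genes and of windows are unlike units. The stretches around the boxes in the 3 lower genes are printed because the genes moved together; the capitals mark the boxes, and the strand is that of the gene. They lie at chr10:79988514-79988583 (Cnn2, plus strand), chr2:156775273-156775342 (Myl9, plus strand) and chr17:46556185-46556274 (Srf, minus strand), all before the start site.
Cnn2: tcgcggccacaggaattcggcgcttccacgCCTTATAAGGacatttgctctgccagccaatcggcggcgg
Myl9: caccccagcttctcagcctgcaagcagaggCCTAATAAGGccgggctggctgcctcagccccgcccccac
Srf: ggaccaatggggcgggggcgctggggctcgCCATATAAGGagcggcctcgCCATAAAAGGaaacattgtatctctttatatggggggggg
Srf itself, the gene of the factor, holds 2 boxes in this stretch. Cnn2, calponin 2, was lower by 1.03 ± 0.11, Myl9, a myosin light chain, by 1.22 ± 0.13 and Srf by 0.80 ± 0.13, the last a call lost within the higher control level. These 3 were named for their promoters after their values had been seen. A match of letters is a description and was not tested as a binding site.

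Signals of the TGF-beta family, which drive matrix and contractile genes in fibroblasts, moved in both directions. Of 30 measured genes, 7 were higher and 7 lower, with a median of 0.06. The count higher was 3 without Con-3 replicate 2 or 3 or tI-3 replicate 2, and 2 without tI-3 replicate 1. Among ligands and their antagonists, Inhbb, an activin subunit, read 8.41, 7.99 and 8.43 in Con-3 and 6.28 and 6.63 in tI-3, a fall of 1.83 ± 0.16. Tgfb1 fell by 1.15 ± 0.18, and Grem1, a secreted antagonist of bone morphogenetic proteins, by 1.16 ± 0.28, a call lost with the block (adjusted p = 0.132) and without tI-3 replicate 2. Among receptors and targets, Bmpr2, a receptor of bone morphogenetic proteins, rose by 0.75 ± 0.15. Smad7, the inhibitory Smad, and Id2, a target of the BMP branch, were higher by 0.81 and 0.92; in both, Con-3 replicate 1 lay close to the tI-3 arrays, and both calls were lost without tI-3 replicate 1 or 2 or Con-3 replicate 2 or 3. The count called was 8 without tI-3 replicate 1, 8 without tI-3 replicate 2 and 9 within the higher control level.

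Lysosomal genes were the list most often higher in tI-3. Lysosomes digest proteins, lipids and sugars with acid hydrolases, and many of their genes are under the transcription factor TFEB. Of 30 measured genes, 17 were higher and 2 lower (63.3% called), with a median of 0.53, or 0.65 after repeated normalization. Mcoln1, a calcium channel of the lysosomal membrane, read 7.67, 7.65 and 7.49 in Con-3 and 8.99 and 8.78 in tI-3, a rise of 1.28 ± 0.12 (adjusted p = 7.44e-05). Npc1, which exports cholesterol from the lysosome, read 5.83, 5.80 and 5.98 and 7.13 and 6.91, a rise of 1.15 ± 0.14. Gpnmb, a membrane glycoprotein, rose by 1.09 ± 0.34, with the tI-3 arrays apart from each other (6.23 and 5.66) and the call lost with the block (adjusted p = 0.13), after repeated normalization and without any of the 5 arrays in turn. The proteases Ctsh and Ctsz went the other way, by -1.76 ± 0.15 and -0.57 ± 0.12, the latter a call lost with the block (adjusted p = 0.0864) and without tI-3 replicate 2. With the block 12 were higher and 1 lower, and without tI-3 replicate 1 it was 9 higher and 2 lower. Ind-8 means were 8.59 for Mcoln1 and 6.11 for Npc1. Tfeb itself, named as an exception to the rule for named genes, read 6.79, 7.13 and 7.14 in Con-3 and 7.45 and 7.32 in tI-3 and did not pass (adjusted p = 0.141).

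The letters TCACGTGA, the core of the element through which TFEB acts on lysosomal genes, were searched on both strands in the same promoter windows, which were found for 22 of the 30 genes. They were present in 6 of the 22, namely in 5 of the 14 called higher, in none of the 1 called lower and in 1 of the 7 not called (Atp6v0d1). Counted by window and not by gene, the share over all 32851 windows was 0.974%. The stretches of the 5 higher genes are printed with the core in capitals, read along the strand of the gene and ending before its start site. They lie at chr8:3500443-3500510 (Mcoln1, plus strand), chr7:142387889-142387956 (Ctsd, minus strand), chrX:134601163-134601255 (Gla, minus strand), chr2:164833730-164833772 (Ctsa, plus strand) and chr16:44139354-44139421 (Atp6v1a, minus strand).
Mcoln1: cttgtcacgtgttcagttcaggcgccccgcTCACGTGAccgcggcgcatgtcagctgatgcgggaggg
Ctsd: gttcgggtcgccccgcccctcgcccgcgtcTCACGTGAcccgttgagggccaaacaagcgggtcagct
Gla: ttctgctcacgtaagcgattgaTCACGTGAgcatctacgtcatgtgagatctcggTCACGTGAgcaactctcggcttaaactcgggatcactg
Ctsa: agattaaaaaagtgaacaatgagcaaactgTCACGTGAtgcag
Atp6v1a: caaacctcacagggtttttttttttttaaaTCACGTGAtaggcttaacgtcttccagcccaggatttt
Ctsd, an aspartic protease, was higher by 0.79 ± 0.10, Gla, an alpha-galactosidase, by 1.02 ± 0.23, Ctsa, a protective carboxypeptidase, by 0.96 ± 0.13 and Atp6v1a, the catalytic subunit of the proton pump, by 0.65 ± 0.18. The call of Atp6v1a was lost with the block (adjusted p = 0.124) and without any of the 5 arrays in turn, and that of Gla without tI-3 replicate 1. These 4 genes were named for their promoters after their values had been seen.

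**Figure D3:**
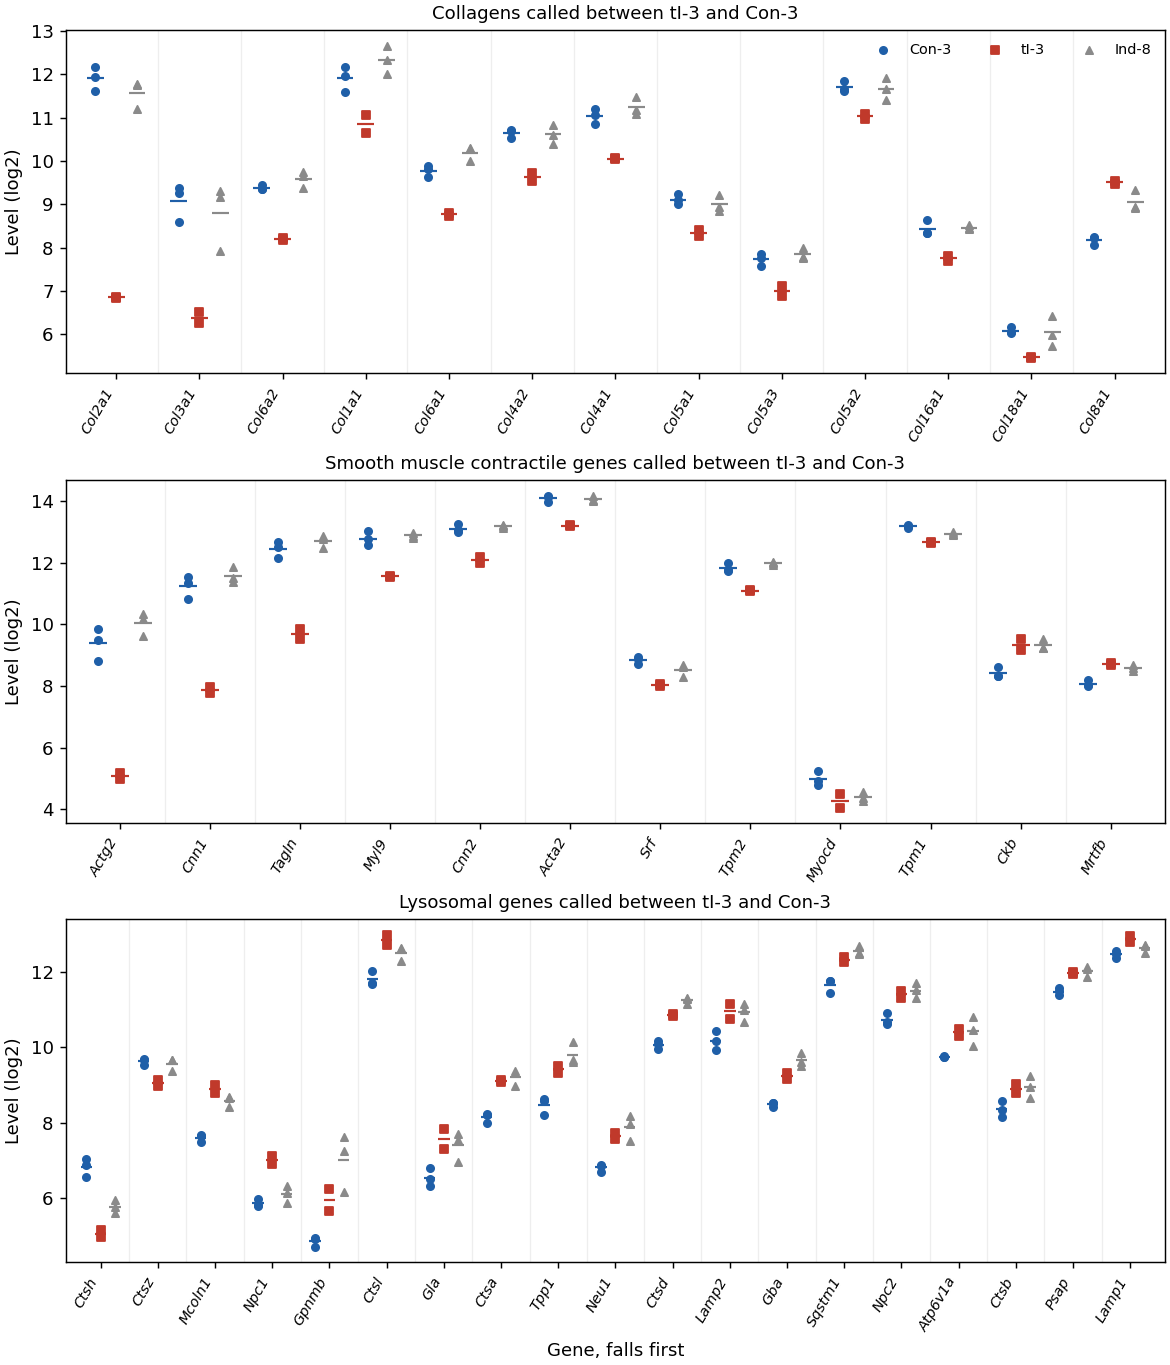
Levels (log2) on each array for the genes called in 3 lists, collagens, smooth muscle contractile genes and lysosomal genes, with circles for Con-3 (3 arrays), squares for tI-3 (2), triangles for Ind-8 (3) and bars for line means. In the upper and middle panels nearly all tI-3 squares lie below the Con-3 circles (12 of 13 collagens and 10 of 12 contractile genes), and in the lower panel they lie above them for 17 of 19 genes.

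Among antioxidant genes and targets of the factor NRF2, calls were mostly rises. Of 29 measured, 10 were higher, 1 was lower and 18 did not pass (37.9% called), with a median of 0.28, or 0.38 after repeated normalization. Ephx1, described above, counts in this list too. Gstm1, a glutathione transferase, read 8.99, 8.98 and 8.79 in Con-3 and 10.62 and 10.25 in tI-3, a rise of 1.51 ± 0.17. Gsta4, which removes lipid peroxidation products, rose by 1.53 ± 0.37, with tI-3 arrays at 9.69 and 8.46 and the call lost with the block (adjusted p = 0.0675) and without tI-3 replicate 1. Cbr1, carbonyl reductase 1, fell by 0.87 ± 0.15. The antioxidant response element was present on either strand for 9 of the 23 genes with a promoter window, 4 of the 7 called higher. Counted by window and not by gene, the share over all windows was 12.4%.

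In biosynthetic gene groups most calls were falls. Of 26 measured genes of cholesterol and fatty acid synthesis, 14 were lower and 0 higher (53.8% called), and 25 of the 26 differences lay below 0, with a median of -0.51, or -0.40 after repeated normalization. Scd1 and Scd2, desaturases that make monounsaturated fatty acids, fell by 1.06 ± 0.13 and 0.95 ± 0.20, the latter a call lost without tI-3 replicate 1. Acaca, acetyl-CoA carboxylase, read 9.57, 9.82 and 9.88 in Con-3 and 8.68 and 8.84 in tI-3, a fall of 1.00 ± 0.15. With the block 12 were lower and 0 higher. The letters TCACCCCA, the core of the sterol response element, were present for 2 of the 18 genes with a promoter window (Hmgcs1 and Srebf2), neither called. Counted by window and not by gene, the share over all windows was 1.56%.

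Genes of the ATF4 response, which supplies amino acids and charged tRNA under stress, were called in 14 of 24 cases (58.3%), 11 lower and 3 higher, with a median of -0.33, or -0.31 after repeated normalization. Slc7a5, the large neutral amino acid carrier, fell by 1.35 ± 0.27, Psph, of serine synthesis, by 1.19 ± 0.17 and Mthfd2, of mitochondrial folate metabolism, by 1.05 ± 0.15. Against that direction, Slc7a11, the cystine carrier that NRF2 also controls, read 4.98, 5.07 and 5.30 in Con-3 and 6.98 and 6.25 in tI-3, a rise of 1.50 ± 0.24. Cebpb, a transcription factor, rose by 0.63 (call lost with the block, adjusted p = 0.0596, and without tI-3 replicate 1), and Nars, a tRNA synthetase, by 0.35 (call lost with the block, adjusted p = 0.165, and without tI-3 replicate 1 or 2 or Con-3 replicate 2).

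Of 29 genes of ribosome biogenesis, 14 were lower and 0 higher (48.3% called), with a median of -0.31, or -0.20 after repeated normalization, which left 10 called. Rrp12, of ribosome subunit export, read 9.17 ± 0.06 in Con-3 and 8.06 ± 0.08 in tI-3 (mean and SD, n = 3 and 2), a fall of 1.11 ± 0.14. Myc, the factor that drives many of these genes, fell by 0.89 ± 0.16, and Ddx21, a nucleolar helicase, by 0.75 ± 0.10. The count called was 7 with the block, 6 within the higher control level and 6 without tI-3 replicate 2, all of them lower. In glycolysis and the hypoxia response, 7 of 22 genes were lower and 1 higher (median -0.14, or -0.06 after repeated normalization and -0.05 with the block). Egln3, an oxygen-sensing prolyl hydroxylase, read 7.26, 6.89 and 6.85 in Con-3 and 4.22 and 3.87 in tI-3, a fall of 2.95 ± 0.16 to the dim end. Adm, the peptide adrenomedullin, fell by 1.42 ± 0.20 and Hk2, a hexokinase, by 0.83 ± 0.12, while Eno2, neuronal enolase, rose by 1.76 ± 0.28. With the block 5 were called.

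Heat shock and chaperone genes had a median of 0.01 over 21 measured genes, or 0.12 after repeated normalization and -0.13 with the block, so that its sign is not settled, with 1 higher and 5 lower, or 2 called with the block or without tI-3 replicate 2. Cryab, a small heat shock protein, read 7.66, 7.62 and 7.09 in Con-3 and 9.41 and 8.90 in tI-3, a rise of 1.69 ± 0.24. Hspa1b and Hspa1a, the inducible Hsp70 genes, were lower by 1.03 and 0.78, near-identical genes whose probes may share signal, and both calls were lost with the block (adjusted p = 0.0955 and 0.232) and without tI-3 replicate 2, that of Hspa1a also without tI-3 replicate 1 or Con-3 replicate 2. Hsf1, the heat shock factor, fell by 0.62 ± 0.11.

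**Figure D4:**
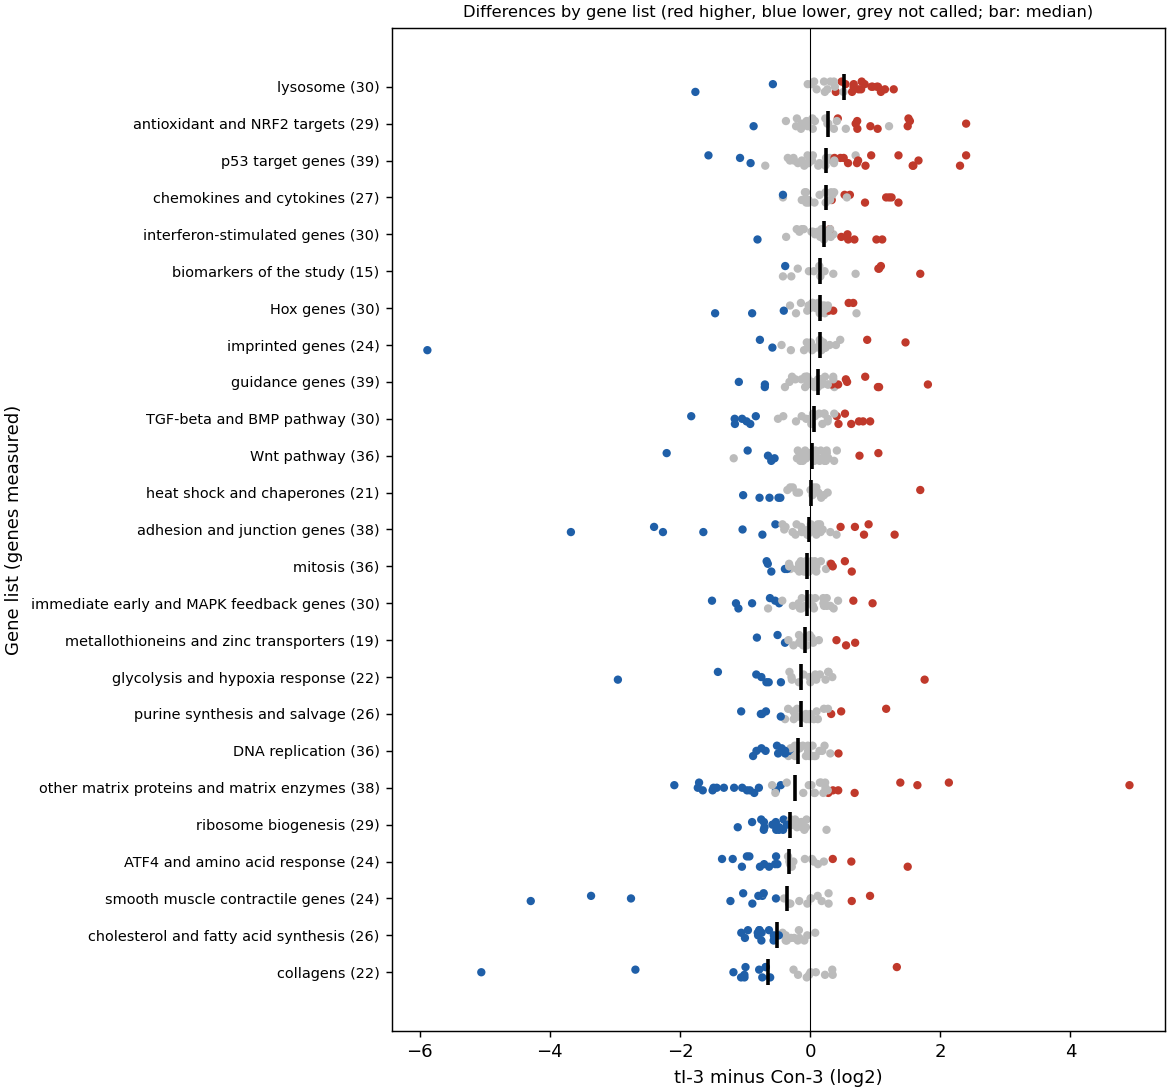
Difference tI-3 minus Con-3 (log2) for each measured gene of 25 lists, ordered by median. Points are genes, red where called higher, blue where called lower and grey where not called, and black bars are medians, from -0.65 for collagens to 0.53 for lysosomal genes.

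Inflammatory genes were more often called higher than lower, as were dim rows in general. Of 27 chemokine and cytokine genes, 8 were higher and 1 lower (33.3% called, median 0.24, or 0.08 with the block). The monocyte chemokine genes Ccl2 and Ccl7 rose by 1.36 ± 0.24 and 1.21 ± 0.30, the latter a call lost with the block (adjusted p = 0.132) and without tI-3 replicate 1. Il1rl1, the receptor of interleukin 33, read 9.92, 10.42 and 9.91 in Con-3 and 11.32 and 11.35 in tI-3, a rise of 1.25 ± 0.15. Ackr3, a scavenging chemokine receptor at the dim end in both lines, was lower by 0.42, a call lost with the block (adjusted p = 0.1) and without tI-3 replicate 1 or 2. With the block 4 were called, all higher. Of 30 interferon-stimulated genes, 7 were higher and 1 lower (26.7% called, close to the 27.0% over all genes, median 0.21). Gbp2, a guanylate-binding protein, rose by 1.11 ± 0.11 from the dim end, and B2m, the light chain of class I molecules, by 1.02 ± 0.13. Ifih1, a sensor of viral RNA, fell by 0.81 ± 0.12.

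Growth factor feedback genes were called in 9 of 30 cases, 7 lower and 2 higher, with a median of -0.05 that ran from -0.19 to 0.05 over the alternatives, or -0.03 with 4 higher and 5 lower after repeated normalization. Without tI-3 replicate 2 the calls were 4 higher and 5 lower, and with the block 2 higher and 4 lower. Etv5 and Etv4, transcription factors that report fibroblast growth factor signalling, fell by 1.51 ± 0.16 and 1.14 ± 0.18, and Ccn2, a matrix-associated target of TGF-beta and YAP, by 1.10 ± 0.16. The AP-1 genes Fosl1 and Fosl2 rose by 0.96 ± 0.20, a call lost without tI-3 replicate 1, and 0.66 ± 0.12. In the Wnt pathway 7 of 36 genes were called (19.4%, against 27.0% of all genes), 2 higher and 5 lower, or 5 higher and 4 lower after repeated normalization. Sfrp2, a secreted Wnt antagonist, read 11.18, 11.22 and 11.46 in Con-3 and 8.94 and 9.23 in tI-3, a fall of 2.20 ± 0.16. Fzd2, a Wnt receptor, fell by 0.96 ± 0.19 and Ccn4, a Wnt-induced secreted protein, by 0.65 ± 0.17, a call lost with the block (adjusted p = 0.0586), after repeated normalization and without tI-3 replicate 1 or Con-3 replicate 3. Lgr6, a receptor that amplifies Wnt signals, rose by 1.05 ± 0.21 and Wnt5a, a ligand, by 0.76 ± 0.18, the latter a call lost without tI-3 replicate 1. With the block 4 were called.

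Among adhesion and junction genes 12 of 38 were called (31.6%), 5 higher and 7 lower, with a median of -0.01 that ran from -0.04 to 0.02 over the alternatives. The count higher was 2 with the block and 3 without Con-3 replicate 1 or 2 or tI-3 replicate 2. Gjb2, the gap junction protein connexin 26, read 7.84, 8.79 and 8.57 in Con-3 and 4.69 and 4.77 in tI-3, a fall of 3.67 ± 0.26. Cdh11, the cadherin of mesenchymal cells, read 10.03, 9.31 and 9.35 and 7.26 and 7.07, a fall of 2.40 ± 0.20, and Cldn1, a tight junction protein, fell by 2.26 ± 0.16. Pcdh7, a protocadherin, rose by 1.30 ± 0.18 from the dim end, Lama5, a laminin chain, by 0.90 (call lost with the block, adjusted p = 0.0564) and Itgb7, an integrin chain, by 0.83 ± 0.14. Of 39 guidance genes, 8 were higher and 3 lower (28.2% called, median 0.12, or 0.08 with the block). The ligand Slit2 read 8.63, 8.39 and 8.78 in Con-3 and 10.44 and 10.38 in tI-3, a rise of 1.81 ± 0.13 (adjusted p = 1.6e-05). Its receptor Robo1 rose by 1.06 ± 0.21 and Nrp2, a semaphorin and VEGF receptor, by 1.04 ± 0.12. Among the falls, Epha3, an ephrin receptor, went down by 1.09 to the dim end, Ephb2, another, by 0.70 and Unc5b, a netrin receptor, by 0.69. The call of Unc5b was lost with the block (adjusted p = 0.281), after repeated normalization and without tI-3 replicate 1 or 2, Con-3 replicate 1 or 3 or Ind-8 replicate 3. With the block 7 guidance genes were called.

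Among imprinted genes, Ndn of the Prader-Willi region, whose product necdin restrains growth, read 9.55, 9.54 and 9.50 in Con-3 and 3.64 and 3.65 in tI-3. Its fall of 5.88 ± 0.09 (adjusted p = 7.51e-11) was the largest of the values computed and ended at the dim end, so that its exact size is uncertain. It read 3.85, 3.87 and 3.87 in Ind-8, so that of the 3 lines it was bright in Con-3 alone. Snrpn, an imprinted gene of the same region named after its values had been seen, differed by 0.16 ± 0.12 (adjusted p = 0.355). Of 24 imprinted genes, 2 were higher and 3 lower (20.8% called, against 27.0% of all genes), or 3 higher and 5 lower after repeated normalization and 4 higher and 2 lower without tI-3 replicate 1. Sgce, a sarcoglycan gene, rose by 1.47 ± 0.16 and Igf2r, which clears insulin-like growth factor 2, by 0.88 ± 0.12. Peg3 and Plagl1, paternally expressed zinc finger genes, fell by 0.77 ± 0.12 and 0.58 ± 0.14, the latter a call lost without tI-3 replicate 1 or 2. Of 30 Hox genes, 4 were higher and 3 lower (23.3% called, median 0.15, or 0.05 with the block). Hoxd8 fell by 1.46 ± 0.16 and Hoxd9 by 0.40, while Hoxb6 rose by 0.66 ± 0.10, Hoxc6 by 0.59 and Hoxb9 by 0.36, Hoxb6 and Hoxb9 from the dim end. With the block, and without tI-3 replicate 2, the calls of Hoxd9, Hoxc6 and Hoxb9 were lost; those of Hoxd9 and Hoxb9 were also lost after repeated normalization and without tI-3 replicate 1 or Con-3 replicate 2. With the block 3 Hox genes were called. Without tI-3 replicate 2 the count was 2, without Con-3 replicate 2 it was 4, and with dim rows left out it was 4.

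Outside these lists, the largest rises belonged to genes of varied function. Tmem176b and Tmem176a, neighbouring genes for membrane proteins of immune cells, moved together. Tmem176b read 6.29, 6.45 and 6.81 in Con-3 and 11.38 and 11.37 in tI-3, a rise of 4.86 ± 0.15, and Tmem176a rose by 3.75 ± 0.11. The Ind-8 arrays read 6.33, 6.51 and 6.68 for Tmem176b, near those of Con-3. Fabp4, the fatty acid carrier of adipocytes, read 5.92, 5.56 and 5.15 in Con-3 and 9.55 and 8.94 in tI-3, a rise of 3.70 ± 0.29, with Ind-8 at 8.22, 8.07 and 7.31. Prkd1, protein kinase D1, rose by 3.50 ± 0.11 from the dim end, and Ica1, an islet cell autoantigen, by 3.48 ± 0.14. Selenop, the selenium carrier, read 6.60 ± 0.52 in Con-3 and 9.68 ± 0.49 in tI-3 (mean and SD, n = 3 and 2), a rise of 3.08 ± 0.39.

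The remaining large rises were of Sulf1, a sulfatase of heparan sulfate (2.76 ± 0.22), C3, a complement component (2.45 ± 0.11), Nbea, a protein of vesicle traffic (2.91 ± 0.18), Zfp422 (2.39 ± 0.14), Slc22a29 (2.91 ± 0.18), Pate14 (2.98 ± 0.20) and 1700020L24Rik (3.37 ± 0.37). C3, Nbea, Slc22a29 and Pate14 were at the dim end in Con-3. For Prkd1 and Nbea the Ind-8 means were 7.87 and 7.02, and for C3 and Pate14 4.82 and 4.56.

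Outside these lists, the largest falls also belonged to genes of varied function. Slc38a4, an amino acid carrier, read 9.34, 9.07 and 9.21 in Con-3 and 4.85 and 4.41 in tI-3, a fall of 4.58 ± 0.14. Serpinf1, the anti-angiogenic protein PEDF, read 11.29, 11.27 and 11.41 and 8.06 and 7.44, a fall of 3.57 ± 0.16. Igfbp7, a binding protein of growth factors, fell by 3.29 ± 0.19, Ptn, the growth factor pleiotrophin, by 3.53 ± 0.34 and Cth, of cysteine synthesis, by 2.98 ± 0.20. Cd302, a lectin receptor, and S1pr3, a receptor of sphingosine 1-phosphate, fell by 3.90 ± 0.14 and 3.71 ± 0.14, Cd302 to the dim end, where the size of a fall is uncertain. Akap12, a kinase scaffold, fell by 2.85 ± 0.19, and Prorsd1 fell by 2.93 ± 0.31. In Ind-8 the means of Slc38a4, Serpinf1, Igfbp7 and Akap12 were 8.44, 10.76, 10.05 and 9.33, and those of Cd302 and S1pr3 were 4.39 and 4.88.

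A list of 15 genes came from the study's work on biomarkers of self-renewal. Some of them were picked on these same arrays, so that their pattern is no independent evidence, while the cyclin genes Ccna2, Ccne1 and Ccnd1 served the study as known cell cycle markers and Lgr5 is a relative of Lgr6. Between tI-3 and Con-3, 4 were higher and 1 lower: Cryab, Gpnmb, Robo1 and Lgr6 rose by the amounts given above, and H2az1, a histone variant, fell by 0.38 ± 0.12 (adjusted p = 0.0449), a call lost with the block (adjusted p = 0.478), after repeated normalization, in the fit on 5 arrays and without any array but Con-3 replicate 3. The other 10 did not pass, and with the block 3 of the 15 were called, all higher. Khdrbs3, an RNA-binding protein, read 3.76, 3.68 and 3.85 in Con-3 and 3.47 and 3.48 in tI-3 against 7.81, 6.95 and 7.44 in Ind-8. Cxcr6, a chemokine receptor, differed by -0.42 ± 0.16 (adjusted p = 0.0867), Btg2, an antiproliferative gene, by 0.70 ± 0.27 (adjusted p = 0.0877) and Fst, the activin antagonist follistatin, by 0.22 ± 0.22 (adjusted p = 0.505). Btg2 was called in the fit on 5 arrays and without Ind-8 replicate 1 or 2, while in 15 alternatives it was not. Plxdc2, Ephb6 and Lgr5 differed by 0.16, 0.36 and 0.06, and the cyclin genes Ccna2, Ccne1 and Ccnd1 by -0.02, -0.19 and 0.14.

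Markers were read to check the labelled cell type. Of 13 fibroblast markers, Vim was the brightest in both lines, at means of 13.88 in Con-3 and 13.65 in tI-3, while Fap and, less clearly, Thy1 were dim, with Thy1 near the bound at 4.13, 4.12 and 4.31 in Con-3 and 4.63 and 4.48 in tI-3. Thy1, a common surface marker of fibroblasts, thus gave a low signal in lines labelled as fibroblasts. The level of a row also depends on its probes, so the amount of Thy1 RNA cannot be read from it. The log2 of the summed signal of the list was 15.69, 15.80 and 15.82 in Con-3 and 15.66 and 15.52 in tI-3. Pdgfrb, Fn1 and Thy1 were called higher and Col1a1, Col3a1, Pdgfra, Sparc and P4hb lower. With the block the 5 lower ones were called and none higher. The call of Thy1 was also lost after repeated normalization and without tI-3 replicate 1 or 2 or Con-3 replicate 1 or 2. Without Con-3 replicate 3 the count of these markers called higher was 1, and it ran from 0 to 2 with each array left out in turn.

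By their mean over all 8 arrays, many markers of other cell types were at the dim end, though not most in every list. Of 9 epithelial markers 5 were there, among them Cdh1 and Epcam, and Krt19 was the brightest, with means of 9.52 and 9.31; none was called, and the summed signal was 9.48, 10.04 and 9.93 in Con-3 and 9.70 and 9.69 in tI-3. Of 8 endothelial markers 6 were at the dim end, Pecam1 and Cdh5 included, and Kdr and Vwf were called higher, with Kdr the brightest (6.16 and 6.60 as means) and sums of 7.56, 7.58 and 7.72 in Con-3 and 7.80 and 7.91 in tI-3. Of 8 blood markers 3 were at the dim end, Ptprc included, and Csf1r, Cd3e and Fcer1g were called higher; Csf1r was the brightest (5.43 and 5.76), and the sums were 7.62, 7.66 and 7.78 in Con-3 and 8.01 and 7.98 in tI-3. With the block none of the endothelial, blood or skeletal muscle markers was called. For 8 skeletal muscle markers the sums were 8.34, 8.38 and 8.36 in Con-3 and 8.43 and 8.37 in tI-3, with Acta1 the brightest (7.25 and 7.07), Myf5, Myf6 and Myh3 at the dim end and Ckm called higher.

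The adipocyte and cartilage markers carried larger differences. The summed signal of 6 adipocyte markers was 8.42, 8.28 and 8.28 in Con-3 and 9.79 and 9.23 in tI-3, with Fabp4 the brightest in tI-3. Pparg, the regulator of fat cell formation, was higher by 0.68 ± 0.22 (adjusted p = 0.0474), a call lost with the block (adjusted p = 0.181), after repeated normalization and without tI-3 replicate 1, Ind-8 replicate 2 or any Con-3 array. Cebpa, the other regulator, fell by 2.56 ± 0.14, and Adipoq, Lpl and Cd36 were at the dim end. For 7 bone and cartilage markers the sums were 12.28, 11.76 and 12.03 in Con-3 and 8.48 and 8.57 in tI-3, led by Col2a1, and Sox9, the regulator of cartilage, differed by -0.69 ± 0.24 (adjusted p = 0.0586). Runx2, the regulator of bone, was lower by 0.43 ± 0.12, a call lost with the block (adjusted p = 0.0738) and without tI-3 replicate 1 or Con-3 replicate 3. Of 9 neural markers 5 were at the dim end, Sox2 included, and Ncam1 was the brightest (7.55 and 7.17). Tubb3 was called lower, but without tI-3 replicate 1 no neural marker was called. The neural sums were 8.93, 8.87 and 8.88 in Con-3 and 8.71 and 8.76 in tI-3. Of 5 pluripotency markers 3 were at the dim end, Pou5f1 included, none was called, and the sums were 7.11, 7.04 and 7.29 in Con-3 and 7.47 and 7.23 in tI-3, with Dppa5a the brightest (6.47 and 6.67). Fewer cells of a type and less RNA per cell cannot be told apart in these bulk samples.

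The calls were spread unevenly over the chromosomes, a pattern noticed in the data and described without a test. Of 723 genes on chromosome 10, 266 were lower in tI-3 (36.8%) and 20 higher (2.77%), against 16.5% and 10.6% over all genes. Chromosome 3 leaned the other way, with 177 of 773 genes higher (22.9%) and 43 lower (5.56%). On chromosomes 8 and 4 the share lower was 28.5% and 25.4%, and on chromosomes 18 and 16 the share higher was 24.5% and 19.1%. Among genes whose mean level lay above the median of all rows, the median difference was -0.45 on chromosome 10 and 0.20 on chromosome 3. After repeated quantile normalization these medians were -0.35 and 0.32, and with the block -0.46 and 0.22.

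Neighbouring genes moved together in places. Among such brighter genes in chromosome order, the run of 25 with the lowest median lay on chromosome 14, from Bora to Dock9. There 22 of the 25 genes were called lower and 0 higher, with a median difference of -1.29, or -1.18 after repeated normalization and -1.11 with the block. The median of their levels was 8.36 in Con-3, 7.07 in tI-3 and 7.84 in Ind-8. Runs of lower genes also lay on the X chromosome from Acot9 to Hccs (18 of 25 lower, median -0.94) and on chromosome 10 from Bclaf1 to Tpd52l1 (20 of 25 lower, median -0.88). The chromosome content of the lines was not measured, and its part in these differences was not tested.

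**Figure D5:**
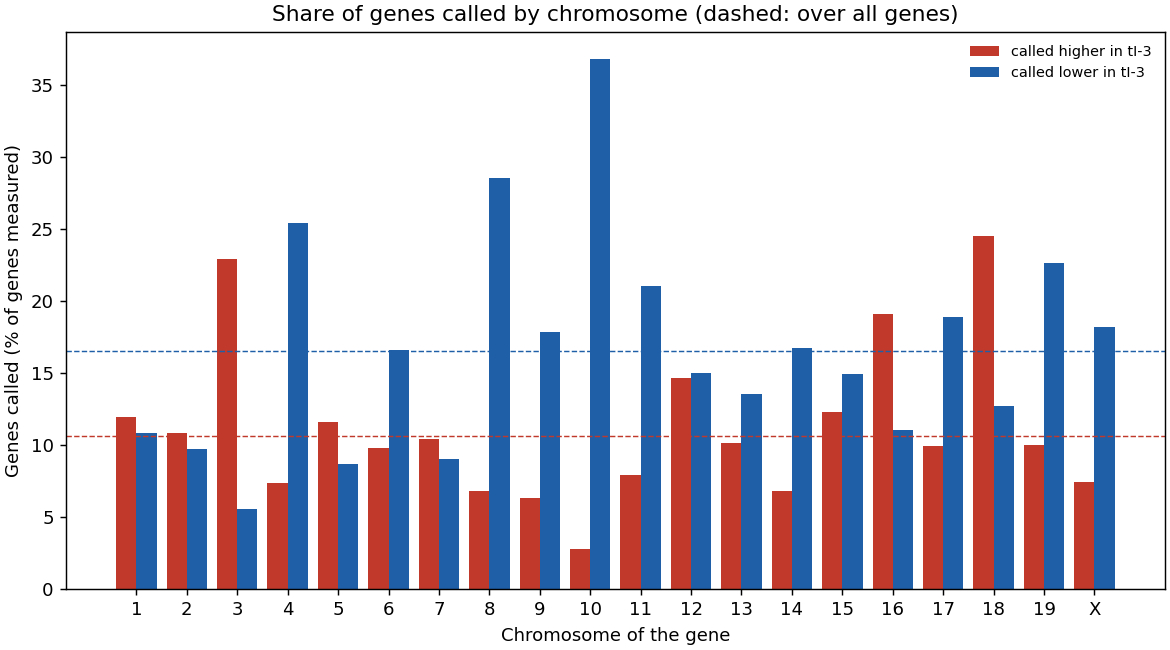
Share of measured genes called higher (red) and lower (blue) in tI-3 than in Con-3 for each chromosome, in percent, with dashed lines at the shares over all genes (10.6% and 16.5%). Chromosome 10 has 36.8% of its genes lower and chromosome 3 has 22.9% higher.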

How the data were processed

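Total RNA of 8 cultures (3 Con-3, 2 tI-3, 3 Ind-8) was hybridised by the authors to 1-colour Affymetrix mouse arrays. The authors computed the deposited log2 levels by RMA with a RefSeq-based probe grouping; background correction and quantile normalization narrow differences of dim rows. Samples were grouped by their titles. 18294 of 22523 rows (81.2%) matched a gene of the RefSeq table (GRCm38.p6), used for names and gene order; 26 distinct rows matched several genes and 2067 none, and these name no gene. limma 3.58.1 in R 4.3.3 was run on all 8 arrays, 1 mean per line, after a test on simulated data; SE are from that fit. Summaries used Python 3.11.15, numpy 2.4.6 and pandas 2.3.3, figures matplotlib 3.10.9. The number of arrays limits the precision.

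The members and the gene lists were chosen with earlier results of these data known, and no set test was made. Named genes are the label checks, the 15 largest rises and 15 largest falls among called genes whose arrays do not overlap between the lines, the called members with the 3 largest rises and falls of each list (3 of these members are not described), the 15 genes from the study's biomarker work and genes named after their values were seen, which are those the text says so of, Col1a1, Col1a2 and the cell type markers. Alternatives were fits on 5 arrays, the replicate block, every row counted, 1 row per gene, a prior trend, rows above the 25th percentile, repeated quantile normalization, median centring, a re-implemented rank product test (100 permutations, false-positive share under 0.05), the hybridization-control level (above or below 9.3) as a block or from 1 level only, and each array left out. Columns of per-sample values belonging to no sample numbered 0. Affymetrix control rows were left out of the tests. The counts by chromosome were added after the data had been seen.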

Additional observations from a re-analysis of the deposited data

Results flagged for a closer look

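The control rows for 18S ribosomal RNA, which entered no comparison, averaged 10.63 on Con-3 replicate 3. The other 7 arrays lay between 5.58 and 6.46, so that this array stood above all others by more than their whole range. Without it, 1813 rows were called higher in tI-3 and 2517 lower, and the effect of its ribosomal signal on single genes was not tested.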

How the results depend on the processing

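Of 19 alternatives, those with the hybridization-control level as a block gave 883 rows higher and 1603 lower, and within the higher level 779 and 1410; both leave 1 Con-3 array to set against tI-3. The rank product test gave 116 higher, all of at least 2-fold, 296 lower and 7 p53 targets, and its counts moved by over 1.5 times in the 23 other lists recounted, which leave out the biomarker list; 87 of the 159 called genes chosen for naming lost their call under it. Leaving out each array in turn gave 928 to 1822 rows higher and 1595 to 2820 lower, the lowest without tI-3 replicate 2, which leaves 1 tI-3 array that is assumed to vary like the other lines. Deviations of same-numbered arrays correlated at 0.215 and 0.019 (Con-3 with tI-3), 0.256, 0.024 and 0.367 (Con-3 with Ind-8) and 0.02 and -0.232 (Ind-8 with tI-3), not above 0.1 in every pair, so the numbers were not taken as pairs. With the replicate block 2222 rows were higher and 2970 lower.

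No called gene named in the text changed sign. Genes not called that did were Ccna2 (0.10 after repeated quantile normalization, 0.0257 with the replicate block), Col1a2 (0.0855 and 0.12), Lgr5 (-0.0635), Mt1 (0.20) and Vim (0.0255) after that normalization, and Plxdc2 with the control-level block or within the higher level (-0.15). With arrays left out, Ccna2 ran from -0.0704 to 0.0333, Col1a2 from -0.25 to 0.14, Lgr5 from -0.0340 to 0.15 and Mt1 from -0.26 to 0.0443. The cause was not tested.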
